A study of Mus musculus with 35 samples.

Results

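The transcripts described here are those of the cannabinoid receptor Cnr1 and of the 7 enzymes Dagla, Daglb, Mgll, Abhd6, Abhd12, Napepld and Faah, which make or break down its lipid ligands. They were chosen by symbol, each symbol mapped to 1 Ensembl identifier, and are 8 of the 52636 genes counted in the series. All 8 were measured in each of the 35 libraries, with between 138 and 43300 reads per gene and library, and all 8 passed the minimum of 10 reads in every comparison.

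The libraries came from 19 female mice, 8 of the inbred strain C57BL/6J and 11 of the hybrid strain B6D2F1N, whose amygdala was cut into an anterior and a posterior portion. Mice lived in standard housing, labelled as the control environment, or in enriched housing, with access to a playground cage for 1 h per day from postnatal day 77. C57BL/6J mice gave 4 anterior and 4 posterior libraries in standard housing and 2 anterior and 4 posterior ones in enriched housing. B6D2F1N mice gave 5 and 5 in standard housing and 5 and 6 in enriched housing, and 16 mice (6 C57BL/6J and 10 B6D2F1N) had a library of each portion. All groups shared discrimination training from postnatal day 70 for 37 to 90 days, a judgment bias test of 5 days and restricted feeding, so that no untrained mice serve as a baseline. Each library held polyadenylated RNA of laser-captured cells aimed at the basolateral nucleus. The portion names follow the labels. The methods text gives the section coordinates in the reverse order, with the portion called posterior nearer to bregma, and if the names were exchanged every sign given below for portion would reverse. Rspo2, a marker of the anterior basolateral nucleus, was higher in the libraries labelled anterior, as described below. Ppp1r1b, a marker of its posterior principal neurons, was not higher at the median in the libraries labelled posterior. Whether the names match the anatomy was not tested.

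Endocannabinoids are lipid messengers that neurons make on demand from their membranes and that mostly act backwards across the synapse. Diacylglycerol lipases make 2-arachidonoylglycerol (2-AG) in the postsynaptic cell, the lipid crosses to Cnr1 on the axon terminal and lowers transmitter release, and serine hydrolases then cleave it. Anandamide, the other main ligand, comes from N-acyl phosphatidylethanolamines and is hydrolysed by Faah. In the basolateral amygdala the receptor is known for its dense presence on cholecystokinin interneurons, with lower levels in glutamatergic principal cells, and for its part in fear extinction and stress responses.

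On GRCm38, Cnr1 (ENSMUSG00000044288), the receptor, lies at chr4:33924593-33948831 on the plus strand. Dagla (ENSMUSG00000035735) at chr19:10245265-10304877 (minus) and Daglb (ENSMUSG00000039206) at chr5:143464584-143505942 (plus) encode the diacylglycerol lipases. Mgll (ENSMUSG00000033174, chr6:88724412-88828360, plus) encodes monoacylglycerol lipase, the main 2-AG hydrolase of brain. Abhd6 (ENSMUSG00000025277, chr14:8002902-8056763, plus) and Abhd12 (ENSMUSG00000032046, chr2:150832493-150904741, minus) encode further 2-AG hydrolases. Napepld (ENSMUSG00000044968, chr5:21662901-21701396, minus) encodes the phospholipase D that releases anandamide, and Faah (ENSMUSG00000034171, chr4:115967145-116017926, minus) its amidase. Counts of Daglb are the least certain, because 2309 of its 9567 exonic bases (24.1%) also belong to Rac1 on the opposite strand and the counting setting for strand is not given in the sources used here. Mgll shares 167 of its 5077 exonic bases (3.29%) with an antisense transcript, Gm26588, and the other 6 genes share none. Of the 72-base windows of Abhd6, 15% match the copy Gm1833 with at most 2 mismatches, against 0.746% for Daglb and none for the other 6 genes.

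Start-site windows (250 bases before to 50 after the annotated start) were available from RefSeq on GRCm38.p6 for 6 of the 8 genes, namely Cnr1, Daglb, Mgll, Abhd6, Napepld and Faah. The most upstream window of each is shown, because the first 4 of these genes differed between the portions as described below whereas Napepld and Faah did not pass the test. Each sequence reads 5′ to 3′ on the strand of its gene. Capitals mark matches, on either strand, to 4 motifs. The GC box was searched as GGGCGG, the box named after its letters as CCAAT, the E-box as CAGCTG, which is its own reverse complement, and the Egr1 site as GCGTGGGCG. The TATA box, searched as TATAAA, and the cAMP response element, searched as TGACGTCA, occurred in none of the 10 windows of these genes.
Cnr1, chr4:33924014-33924313 (plus): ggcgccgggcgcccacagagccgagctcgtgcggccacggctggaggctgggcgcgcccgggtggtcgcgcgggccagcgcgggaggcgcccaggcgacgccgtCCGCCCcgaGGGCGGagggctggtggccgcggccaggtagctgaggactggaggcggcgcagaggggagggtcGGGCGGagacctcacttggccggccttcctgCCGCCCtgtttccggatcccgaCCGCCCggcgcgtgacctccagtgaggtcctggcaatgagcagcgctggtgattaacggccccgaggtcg
Daglb, chr5:143464243-143464542 (plus): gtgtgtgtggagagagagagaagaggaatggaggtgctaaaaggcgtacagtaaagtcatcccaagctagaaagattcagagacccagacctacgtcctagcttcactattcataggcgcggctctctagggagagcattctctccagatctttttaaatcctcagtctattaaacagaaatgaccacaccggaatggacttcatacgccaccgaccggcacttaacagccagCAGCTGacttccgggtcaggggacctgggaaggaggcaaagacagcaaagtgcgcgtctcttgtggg
Mgll, chr6:88724162-88724461 (plus): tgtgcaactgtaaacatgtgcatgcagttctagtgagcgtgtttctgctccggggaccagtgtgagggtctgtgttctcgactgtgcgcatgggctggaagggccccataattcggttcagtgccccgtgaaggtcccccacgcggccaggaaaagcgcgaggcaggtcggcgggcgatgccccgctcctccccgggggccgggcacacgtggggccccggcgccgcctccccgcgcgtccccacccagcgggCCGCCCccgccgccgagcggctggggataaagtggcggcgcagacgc
Abhd6, chr14:8002638-8002937 (plus): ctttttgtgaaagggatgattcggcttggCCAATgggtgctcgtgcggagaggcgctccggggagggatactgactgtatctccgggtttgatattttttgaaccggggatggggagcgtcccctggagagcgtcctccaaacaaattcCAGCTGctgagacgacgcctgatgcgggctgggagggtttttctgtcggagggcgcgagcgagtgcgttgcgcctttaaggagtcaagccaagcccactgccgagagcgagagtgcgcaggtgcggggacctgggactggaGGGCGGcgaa
Napepld, chr5:21701573-21701872 (minus): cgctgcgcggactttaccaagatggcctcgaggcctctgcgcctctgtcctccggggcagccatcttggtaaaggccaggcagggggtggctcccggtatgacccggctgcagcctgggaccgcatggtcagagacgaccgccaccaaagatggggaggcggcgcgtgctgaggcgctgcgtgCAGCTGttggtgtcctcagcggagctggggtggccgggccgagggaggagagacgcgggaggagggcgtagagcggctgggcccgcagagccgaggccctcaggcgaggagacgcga
Faah, chr4:116017875-116018174 (minus): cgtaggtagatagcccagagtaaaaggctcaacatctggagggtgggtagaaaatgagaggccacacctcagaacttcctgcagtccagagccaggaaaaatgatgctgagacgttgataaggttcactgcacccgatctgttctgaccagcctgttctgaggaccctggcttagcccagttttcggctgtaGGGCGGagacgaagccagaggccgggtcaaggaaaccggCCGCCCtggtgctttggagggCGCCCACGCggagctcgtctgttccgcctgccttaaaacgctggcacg

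GC boxes occurred in 6 of the 10 windows, those of Cnr1, Mgll, Abhd6 and Faah, against 35.7% of the 32851 windows of all genes. The 10 windows are not independent, since Cnr1, Mgll and Abhd6 have several each. Those of Abhd6 overlap and hold the same GC box, so an excess was not tested. The Cnr1 window shown held 5 of them, with 40 CpG sites and a GC content of 76.3%, whereas the median window of all genes had a GC content of 52.7%. The Daglb window was the only one of the 6 shown with a GC content (51%) under that median. E-boxes were found in Daglb, Abhd6 and Napepld (16.3% of all windows), a CCAAT box in Abhd6 (37.4%) and an Egr1 site in Faah (0.612%). A match to these letters is a description of the window and not evidence of binding.

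Gene counts summed to 16938534 at least and 27352623 at most, and the ranges of the portions overlapped. Each of 6 genes listed as markers of the basolateral amygdala had at least 1 read in every library, which does not measure how much of a capture was this nucleus. Rspo2, a marker of principal neurons of the anterior basolateral nucleus, ranged from 33.4 to 305 CPM (read counts relative to the TMM-scaled library size) in the anterior and from 0.0417 to 54.2 CPM in the posterior libraries. Ppp1r1b, which marks its posterior principal neurons, ranged from 7.69 to 71.9 and from 7.63 to 146 CPM, and these ranges overlapped. Its medians were 29.9 CPM anterior and 26.1 CPM posterior. Elsewhere on that list, the anterior median was the higher for Bdnf (278.6 and 69.9 CPM) and Etv1 (141.9 and 111.5 CPM). The posterior median was the higher for Lypd1 (119.8 and 377.1 CPM) and Fezf2 (9 and 12.3 CPM). The libraries of B6D2F1N standard mouse 1 held 0 reads of Xist, the RNA of the inactive X chromosome, against 1191 to 4831 in the other 33 libraries. Among 4 genes of the Y chromosome (Uty, Kdm5d, Ddx3y and Eif2s3y) no library had more than 1 read of any, so this mouse stood apart in a female marker without male transcripts. Results on Cnr1 that rest on it are given with and without it.

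Abhd6 had the highest level per exonic length, with a mean of 136 CPM per kb (SD 38.3, n = 35), followed by Cnr1 with 119 (SD 78.6) and Abhd12 with 103 (SD 54.8). These 3 genes exchanged places. Abhd6 exceeded Cnr1 in 18 of 19 posterior but in 8 of 16 anterior libraries, and Cnr1 exceeded Abhd12 in 16 of 35. A wide gap followed, since Abhd12 exceeded Faah, with 29.3 CPM per kb (SD 9.17), in all 35 libraries. Mgll came next with 23.4 CPM per kb (SD 10.6), above Daglb with 12.7 (SD 5.08) in 30 of 35 libraries. Faah and Mgll did not differ beyond their spread in the anterior portion, where Faah was the higher of the pair in 6 of 16 libraries, while in the posterior portion it was the higher in 16 of 19. Napepld, with 4.81 CPM per kb (SD 2.15), and Dagla, with 4.54 (SD 2.19), had the lowest levels, and they also changed order, with Napepld above Dagla in 6 of 16 anterior and 16 of 19 posterior libraries. Divided by the longest transcript instead, Abhd12 and Abhd6 were nearly equal at the top, with means of 145.9 and 144.6 CPM per kb. Daglb nearly reached Mgll (25 against 29.8), while the order from Faah to Dagla was kept.

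**Figure D1:**
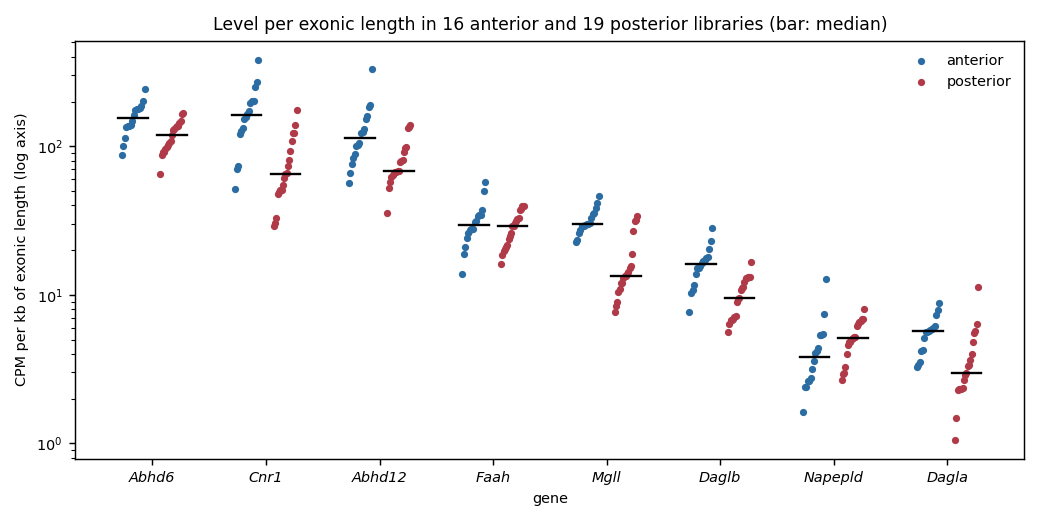
Level of each gene in CPM per kb of exonic length (log axis), with 1 point per library, 16 anterior (blue) and 19 posterior (red), and a bar at the median. Abhd6, Cnr1 and Abhd12 sit above Faah and Mgll, and Napepld and Dagla lie lowest, with the median of Cnr1 at 162 in the anterior and 65.1 in the posterior libraries.

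Transcripts of the receptor and of the listed enzymes of 2-AG were lower in the posterior than in the anterior amygdala, and those of Napepld and Faah did not pass the test. A difference between the enzymes of 2-AG and of anandamide was not tested, and Plaat1, a further gene of the anandamide route, was lower as given below. Over the 16 mice with both portions, compared within mouse, 6 of the 8 genes were lower in the posterior portion and none was higher (edgeR quasi-likelihood test with Benjamini-Hochberg adjustment, which is behind every call below unless DESeq2 is named). Those 6 were Cnr1, both diacylglycerol lipases and all 3 hydrolases of 2-AG, and the same 6 genes were called without B6D2F1N standard mouse 1. Across all 29437 genes tested, 8.6% differed between the portions and 4.69% were lower in the posterior. DESeq2 called the same 6 genes, and it called 8.7% of 20305 genes lower. The median log2 fold change, posterior minus anterior, was -0.61 over the 8 genes, 0.12 over all genes tested and 0.05 over the genes above 1 CPM. In C57BL/6J alone, with 6 mice, 2 of the 8 genes (Cnr1 and Mgll) were lower, where 3.64% of genes differed and 2.1% were lower. In B6D2F1N alone, with 10 mice, 5 were lower (Cnr1, Daglb, Mgll, Abhd6 and Abhd12), against 4% and 2.37%. The fit over 16 mice contains the libraries of the fits within a strain and is not independent of them. Within single mice, 7 of 16 had 7 of the 8 genes at a lower CPM in the posterior portion, 6 had 6 and 1 had 8. The remaining pair, C57BL/6J enriched mouse 1 and B6D2F1N standard mouse 3, had 2 each. In the fit over the 16 mice 44.6% of the genes above 1 CPM had a negative log2 fold change, and the share within single mice was not computed. Several of the 8 genes correlate with each other, so they do not count as independent within a mouse. Lower levels in such bulk samples can come from fewer cells of a type or from less RNA per cell, and these cannot be told apart.

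**Figure D2:**
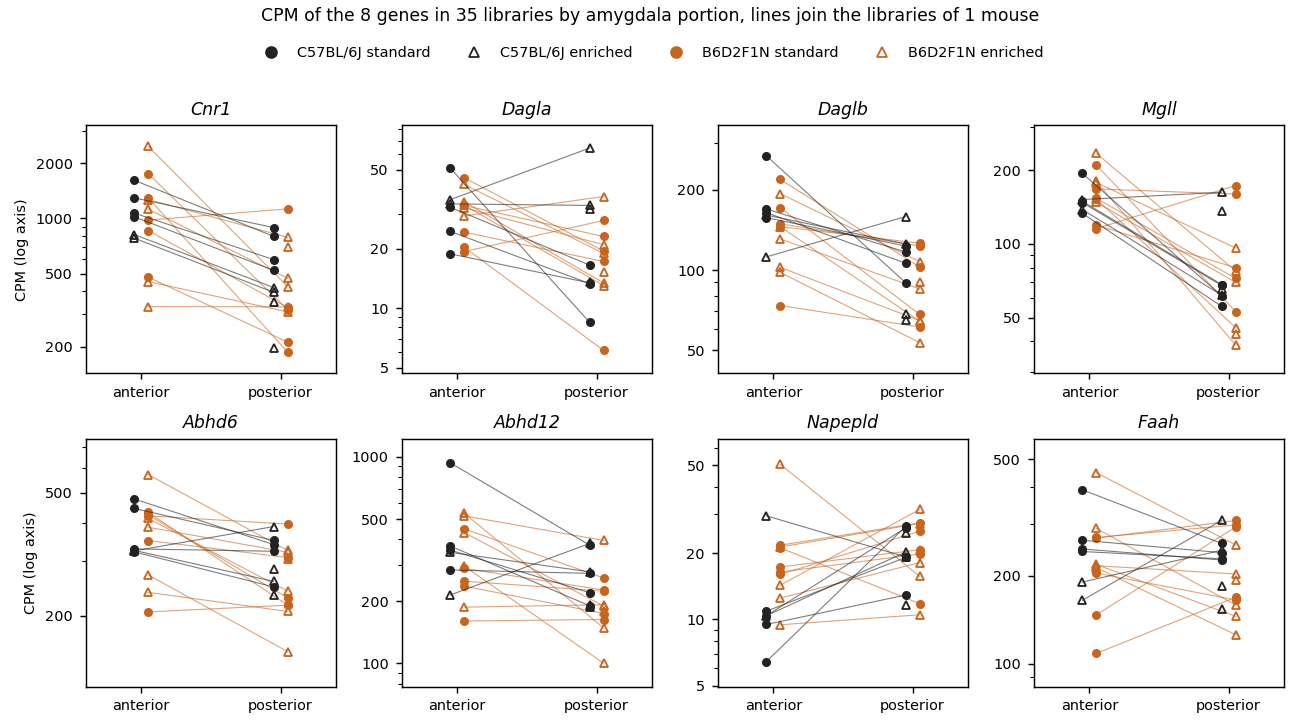
CPM (log axis) of the 8 genes in the anterior and posterior libraries, with circles for standard and triangles for enriched housing, black for C57BL/6J and orange for B6D2F1N. Lines join the 2 libraries of a mouse. Most lines fall for Cnr1 (15 of 16), Daglb (15), Mgll (14), Abhd6 (14), Dagla (13) and Abhd12 (13), whereas 13 of 16 rise for Napepld. The Cnr1 line of B6D2F1N enriched mouse 1 is nearly level (330.3 and 329.3 CPM).

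Cnr1, the presynaptic receptor, ranged in C57BL/6J from 780 to 1612 CPM in the anterior libraries, with a median of 1044, and from 395 to 890 CPM in the posterior ones, with a median of 558. All 6 mice had the lower level in the posterior portion, and 4 of the 6 posterior libraries lay below every anterior one. The log2 fold change was -0.90 ± 0.138 (adjusted p = 0.000669). Here and below ± gives an SE derived from the test, the absolute log2 fold change divided by the square root of its F statistic. In B6D2F1N the anterior libraries spread more widely, from 330 to 2466 CPM with a median of 1049, against 187 to 1126 CPM with a median of 328 in the posterior. The level was lower in the posterior portion of 9 of 10 mice, by a log2 fold change of -1.26 ± 0.268 (adjusted p = 0.00947). Among these 9, enriched mouse 1 had nearly equal levels, with 330.3 CPM anterior and 329.3 CPM posterior. The exception was B6D2F1N standard mouse 1, the mouse without Xist reads, with 978 CPM anterior and 1126 CPM posterior. Over all 16 mice the receptor was 2.16-fold lower in the posterior portion (log2 fold change -1.11 ± 0.18, adjusted p = 0.000123), and without that mouse the log2 fold change was -1.20 (adjusted p = 5.06e-05).

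Of the enzymes that make 2-AG, Dagla is the lipase on which synaptic 2-AG in the adult brain mainly depends. It ranged from 18.8 to 50.9 CPM, median 32.6, in the anterior libraries of the 16 mice and from 6.12 to 64.3 CPM, median 18, in their posterior libraries. Levels were lower in the posterior portion of 13 mice, yet the highest value of all was the posterior library of C57BL/6J enriched mouse 1. The log2 fold change over the 16 mice was -0.73 ± 0.196 (adjusted p = 0.0176), and without the mouse as a block it was -0.56 with an adjusted p of 0.09. In B6D2F1N it was -0.77 ± 0.219 and missed the threshold with edgeR (adjusted p = 0.0543). It passed with DESeq2 (adjusted p = 0.0158), which called 5.59% of 19149 genes lower there, with no minimum count (0.0323), without B6D2F1N standard mouse 3 (0.0194) and without B6D2F1N enriched mouse 6 (0.0302). Daglb, the lipase with a larger part outside neurons, ranged from 73.7 to 269 CPM, median 153, in the anterior and from 53.5 to 159 CPM, median 104.5, in the posterior libraries. It was lower in the posterior portion of 15 of 16 mice, by a log2 fold change of -0.65 ± 0.121 (adjusted p = 0.000644). All 10 B6D2F1N mice showed this direction (-0.74 ± 0.137, adjusted p = 0.00334), while in C57BL/6J the value of -0.50 ± 0.206 missed the adjusted threshold (adjusted p = 0.259, edgeR).

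Mgll, which ends the action of 2-AG in axon terminals, had the largest fitted difference between the portions of the 3 hydrolases. Its anterior libraries ranged from 115.5 to 234 CPM with a median of 152, and its posterior libraries, in the same 16 mice, from 38.6 to 173 CPM with a median of 68.9. In 13 of 16 mice the posterior library lay below every anterior one. The log2 fold change was -1.07 ± 0.165 over all mice (2.09-fold lower, adjusted p = 7.1e-05), -1.06 ± 0.193 in C57BL/6J (adjusted p = 0.00295) and -1.08 ± 0.231 in B6D2F1N (adjusted p = 0.00976). The 3 posterior libraries outside the low range were those of C57BL/6J enriched mouse 1 (162 CPM) and of B6D2F1N standard mice 2 (159.6 CPM) and 3 (173 CPM).

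Abhd6, a hydrolase of the postsynaptic side, ranged from 205.5 to 572 CPM, median 368, in the anterior and from 153 to 395 CPM, median 283, in the posterior libraries. The log2 fold change was -0.39 ± 0.0994 over the 16 mice (adjusted p = 0.0109), and the level was lower in the posterior portion of 14. In B6D2F1N it was -0.51 ± 0.134 (adjusted p = 0.0384). This call was lost when standard mouse 2 or 4 or enriched mouse 1, 2, 3, 4 or 6 was left out, with adjusted p between 0.0545 and 0.118. Abhd12, a hydrolase of lysophosphatidylserine as well as of 2-AG, ranged from 161 to 936 CPM, median 320.5, in the anterior and from 100.3 to 394 CPM, median 222, in the posterior libraries. The log2 fold change was -0.57 ± 0.15 (adjusted p = 0.0141), with lower levels in the posterior portion of 13 mice. In B6D2F1N it was -0.67 ± 0.181 (adjusted p = 0.043), and the call was lost without standard mouse 1, 2 or 4 or enriched mouse 2, 3, 4 or 6 (adjusted p between 0.0509 and 0.13), and also with DESeq2's size factors in edgeR (0.051) and with filterByExpr (0.0565).

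Neither Napepld nor Faah passed the threshold. Napepld, which makes anandamide, ranged from 6.44 to 50.4 CPM, median 15.1, in the anterior and from 10.5 to 31.5 CPM, median 20, in the posterior libraries, and the ranges overlapped throughout. The level was higher in the posterior portion of 13 of 16 mice, without passing the threshold (edgeR adjusted p = 0.281). In C57BL/6J the log2 fold change was 0.81 ± 0.296 (adjusted p = 0.179, edgeR), with higher levels in 5 of 6 mice, and without C57BL/6J enriched mouse 3, the mouse with the opposite direction, it was 1.10 with an adjusted p of 0.0345. Faah, which breaks anandamide down, had medians of 230 CPM anterior and 234 CPM posterior, with 10 mice lower and 6 higher in the posterior portion (adjusted p = 0.822).

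**Figure D3:**
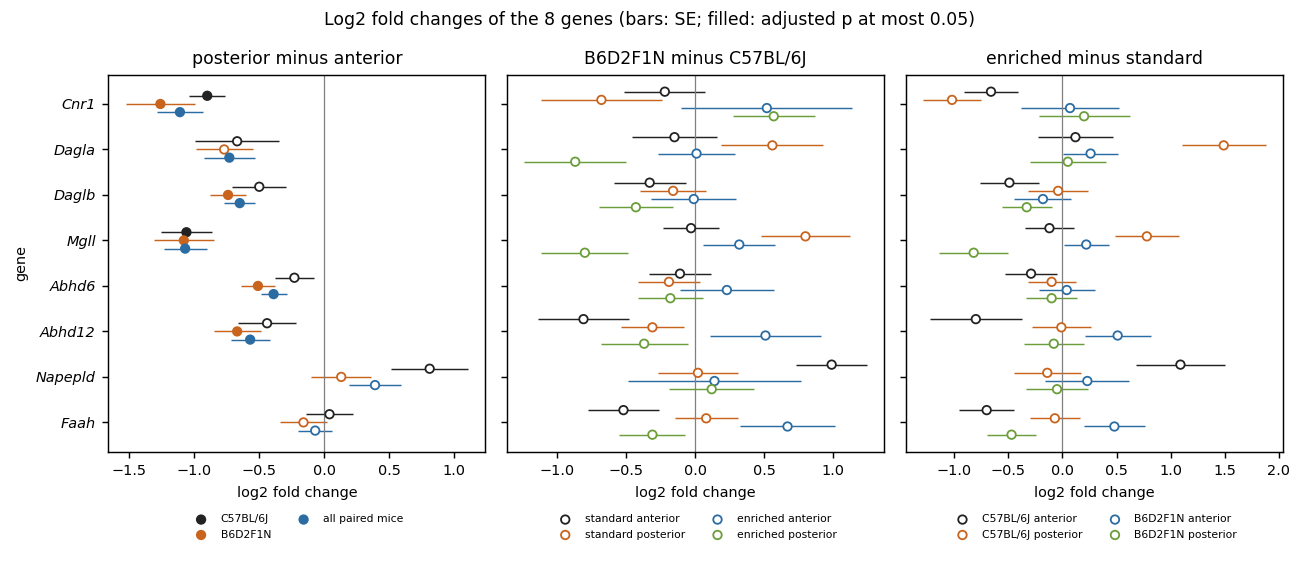
Log2 fold changes of the 8 genes with SE bars, for posterior minus anterior, B6D2F1N minus C57BL/6J and enriched minus standard, with 1 colour per group compared. Filled points pass an adjusted p of 0.05 and occur only in the comparison of portions, for Cnr1 and Mgll in C57BL/6J, for 5 genes in B6D2F1N and for 6 genes over all paired mice.

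The difference between the portions was also compared between the strains and between the housings, within mouse. No gene passed the threshold in either test, 0% of 29437 genes in each with edgeR (871 and 888 genes had an unadjusted p under 0.05, and DESeq2 called 0 and 1), and none of the 8 genes had an unadjusted p under 0.05. For Cnr1 the portion difference in B6D2F1N minus that in C57BL/6J was -0.37 ± 0.354 on the log2 scale, and -0.54 ± 0.331 without B6D2F1N standard mouse 1, and for Mgll it was -0.03 ± 0.336. The additional calls in B6D2F1N are therefore not shown to be specific to that strain.

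Of 33 further genes of endocannabinoid metabolism and signalling, 32 could be tested over the 16 mice and 4 were lower in the posterior portion, with none higher, where 4.69% of all genes were lower. DESeq2 called these 4 as lower and also Naaa, an acid amidase, as higher (log2 fold change 0.26, adjusted p = 0.0497), where it called 16.9% of 20305 genes in either direction. The median log2 fold change of the 32 genes was -0.07, against 0.12 over all genes and 0.05 over the genes above 1 CPM. Plcb1, a phospholipase C that delivers the diacylglycerol used by Dagla and Daglb, had a log2 fold change of -0.89 ± 0.0974 (adjusted p = 6.3e-07), and it was lower in each strain as well (-0.93 in C57BL/6J, -0.88 in B6D2F1N). Ptgs2, the cyclooxygenase that also oxygenates 2-AG, had the largest difference among the 4 called genes, with a log2 fold change of -2.06 ± 0.38 (adjusted p = 0.000532). Fabp3, a fatty acid binding protein, had a log2 fold change of -0.69 ± 0.115 (adjusted p = 0.000177), and Plaat1, an acyltransferase of the anandamide route, one of -0.88 ± 0.239 (adjusted p = 0.019), which missed the threshold without the mouse as a block (-0.72, adjusted p = 0.0991). In C57BL/6J alone 5 of 32 genes were lower, against 2.1% of all genes, these 4 and Plcb4 (-0.79 ± 0.18, adjusted p = 0.0158), and in B6D2F1N alone 3 of 31 (Plcb1, Ptgs2 and Fabp3), against 2.37%. In C57BL/6J the call of Ptgs2 was lost in 7 of 12 alternatives, among them DESeq2 (adjusted p = 0.196) and the fits without standard mouse 1, 2 or 4 (0.0682 to 0.137). Single mice also decided the C57BL/6J calls of Plaat1 (adjusted p 0.0717 to 0.164 without standard mouse 1, 2 or 4 or enriched mouse 1 or 3), Fabp3 (0.057 to 0.0867 without standard mouse 1, 3 or 4) and Plcb4 (0.0545 and 0.0705 without enriched mouse 1 and standard mouse 1). In B6D2F1N the Fabp3 call was lost without standard mouse 1 or 4 or enriched mouse 1 or 6 (adjusted p 0.0629 to 0.0687). None of the other receptors (Cnr2, Gpr55, Gpr18, Gpr119 and Trpv1) or receptor partners (Cnrip1, Sgip1 and Gprasp1) passed the threshold over the 16 mice.

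Markers of several cell types moved with portion. The summed level of 6 choroid plexus markers ranged from 6.52 to 940 CPM in the anterior libraries, median 11.4, and from 117 to 14305 CPM in the posterior, median 1458, and all 6 were higher in the posterior portion over the 16 mice, although Folr1, Otx2 and Aqp1 of that list were at 0 in 10, 12 and 15 of the 35 libraries. Meningeal fibroblast markers summed to 35.3 to 92.7 CPM in the anterior and to 47.7 to 1808 CPM in the posterior libraries, with 1 of 6 higher. That gene was Dcn, with medians of 21.9 and 698.8 CPM, whereas Col1a1 (1.23 and 1.75 CPM) and Col1a2 (7.46 and 7.57 CPM), which define fibroblasts, had similar medians. Excitatory neuron markers ranged from 1821 to 4406 CPM, median 3235, against 1104 to 5549 CPM, median 2254, and 3 of 6 were lower and 1 was higher in the posterior portion. Of 5 markers of cholecystokinin interneurons, the cells known to carry the most Cnr1, 3 were lower and 1 was higher, and their sums had medians of 227 CPM anterior and 112 CPM posterior. Basolateral amygdala markers gave 2 lower and 1 higher of 6, astrocyte markers 1 lower and 3 higher of 6, and endothelial markers 1 lower of 6. Inhibitory neuron, oligodendrocyte, microglia and striatal projection neuron markers gave no edgeR call among 6 each. DESeq2 called further markers of the cell type lists, among them Camk2a, Etv1 and Slc1a3. Reads on no annotated gene made up 14 to 22.8% of reads, median 17.2%, in the anterior and 13.7 to 26.4%, median 21.5%, in the posterior libraries. The part of these differences in the results on portion was not tested.

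None of the 8 genes passed the threshold between the strains. Fold changes are given for genes with an unadjusted p under 0.05 or where a single mouse decided the call. In standard housing, the anterior portion had 0.37% of 24305 genes past the threshold and the posterior portion 0.373% of 25171. In enriched housing it was 0.0639% of 23459 and 0.394% of 25640, and with both housings in 1 fit 0.615% of 26353 and 0.858% of 27871. DESeq2 called between 0.692% and 2.24% of genes in these 6 comparisons. Napepld came nearest in the standard anterior group, with 10.9, 9.49, 6.44 and 10.4 CPM in the 4 C57BL/6J mice and 21.1, 16, 21.7, 17.3 and 16.4 CPM in the 5 B6D2F1N mice. The groups did not overlap, although the share of all genes with such a separation was not counted. The log2 fold change, B6D2F1N minus C57BL/6J, was 0.99 ± 0.256 (adjusted p = 0.204, edgeR). DESeq2 called it (log2 fold change 0.98, adjusted p = 0.00702), and in the same comparison it called 254 of the 21089 genes it gave an adjusted p (1.2%). In the enriched anterior group the C57BL/6J mice had 10.4 and 29.5 CPM, inside the range of 9.46 to 50.4 CPM of the 5 B6D2F1N mice, so the separation was not seen there.

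Cnr1 in the standard posterior group rested on 1 mouse. The 4 C57BL/6J mice had 596, 798, 521 and 890.4 CPM, and B6D2F1N mice 2 to 5 had 318, 212, 187 and 327 CPM, all lower, whereas B6D2F1N mouse 1, without Xist reads, had 1126 CPM. With it the log2 fold change was -0.68 ± 0.439 (adjusted p = 0.675, edgeR) and without it -1.40 ± 0.255 (adjusted p = 0.0246), in a fit that called 0.667% of 24900 genes. Leaving out any of the other 8 mice gave between -0.79 and -0.49, with adjusted p of at least 0.65. In the enriched posterior group the fitted sign was the opposite, with 395, 196, 420 and 352 CPM in C57BL/6J and 309 to 788 CPM, median 449, in B6D2F1N, and the ranges overlapped.

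For Mgll the fitted strain difference had opposite signs in the standard and the enriched posterior groups, and neither passed the threshold. In the standard posterior group the C57BL/6J mice had 67.6, 68.2, 61.3 and 55.5 CPM and the B6D2F1N mice 52.9, 159.6, 173, 72.2 and 79.9 CPM, and the groups overlapped (log2 fold change 0.80 ± 0.32, adjusted p = 0.467, edgeR). In the enriched posterior group the C57BL/6J mice had 162, 136, 61.7 and 65.5 CPM and the 6 B6D2F1N mice 38.6 to 96.2 CPM, median 57.6 (-0.80 ± 0.315, adjusted p = 0.506, edgeR). Dagla in that group had a log2 fold change of -0.87 ± 0.369 (adjusted p = 0.511, edgeR), with 64.3, 31.7, 33 and 13.5 CPM in C57BL/6J and 13 to 36.6 CPM in B6D2F1N. Abhd12 in the standard anterior group had -0.81 ± 0.332 (adjusted p = 0.539, edgeR), and without C57BL/6J mouse 2, whose 936 CPM stood above the 284 to 370.5 CPM of the other 3, the log2 fold change was -0.27 (adjusted p = 0.889).

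None of the 8 genes passed the threshold for housing with edgeR. By that test 0% of 22865 genes differed in C57BL/6J anterior, 0.0163% of 24526 (4 genes) in C57BL/6J posterior, 0% of 24639 in B6D2F1N anterior and 0% of 26028 in B6D2F1N posterior libraries. With both strains in 1 fit the anterior portion had 0% of 26353 genes past the threshold, and for the posterior portion the share was 0% of 27871. In the comparisons with 0 calls, in that order, 1418, 1553, 1716, 1665 and 2371 genes had an unadjusted p under 0.05, and DESeq2 called 100, 8, 13, 70 and 2 genes. In C57BL/6J posterior libraries 2515 genes had an unadjusted p under 0.05, and DESeq2 called 319 of 20445 (1.56%).

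The smallest p-values for housing among the 8 genes were those of Cnr1 and Dagla in C57BL/6J posterior libraries, which passed the threshold with DESeq2 but not with edgeR. For Cnr1 the enriched mice had 395, 196, 420 and 352 CPM and the standard mice 596, 798, 521 and 890.4 CPM, and the groups did not overlap (log2 fold change, enriched minus standard, -1.02 ± 0.267, adjusted p = 0.215, edgeR). The share of all genes without overlap was not counted here either. For Dagla the enriched mice had 64.3, 31.7, 33 and 13.5 CPM and the standard mice 13.3, 8.48, 13.4 and 16.5 CPM. Of the 4 enriched mice, 3 lay above every standard mouse (1.49 ± 0.388, adjusted p = 0.215, edgeR). DESeq2 called both, Cnr1 with an adjusted p of 0.0176 and Dagla with 0.0271, against 1.56% of all genes, and edgeR without a minimum count called Dagla (0.0419), against 0.37% of 30299 genes. Mgll was above every standard mouse in the enriched mice numbered 1 and 2 (162 and 136 CPM), with a log2 fold change past the unadjusted threshold only (0.78 ± 0.297, adjusted p = 0.45, edgeR). Oligodendrocyte markers moved with this comparison. Their summed level was 17758 to 27761 CPM in the enriched and 8067 to 12858 CPM in the standard mice, and edgeR called 1 of 6 higher and DESeq2 4 (Mbp, Mobp, Mag and Cnp). Basolateral amygdala markers summed to 346 to 657 and 671 to 1033 CPM, with no edgeR call among 6 and 1 by DESeq2 (Lypd1, lower). Excitatory neuron markers summed to 1482 to 5549 CPM and to 1197 to 2890 CPM, with no edgeR call among 6, while DESeq2 called some of them higher, among them Tbr1. Cholecystokinin interneuron markers summed to 94.7 to 195.6 CPM in the enriched and 174 to 246.9 CPM in the standard mice. Among these 5 edgeR called none and DESeq2 called 1 (Htr3a, lower). DESeq2 also called the astrocyte marker Gfap and the inhibitory neuron marker Slc32a1 higher. The part of these shifts in the values of Cnr1 and Dagla was not tested.

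**Figure D4:**
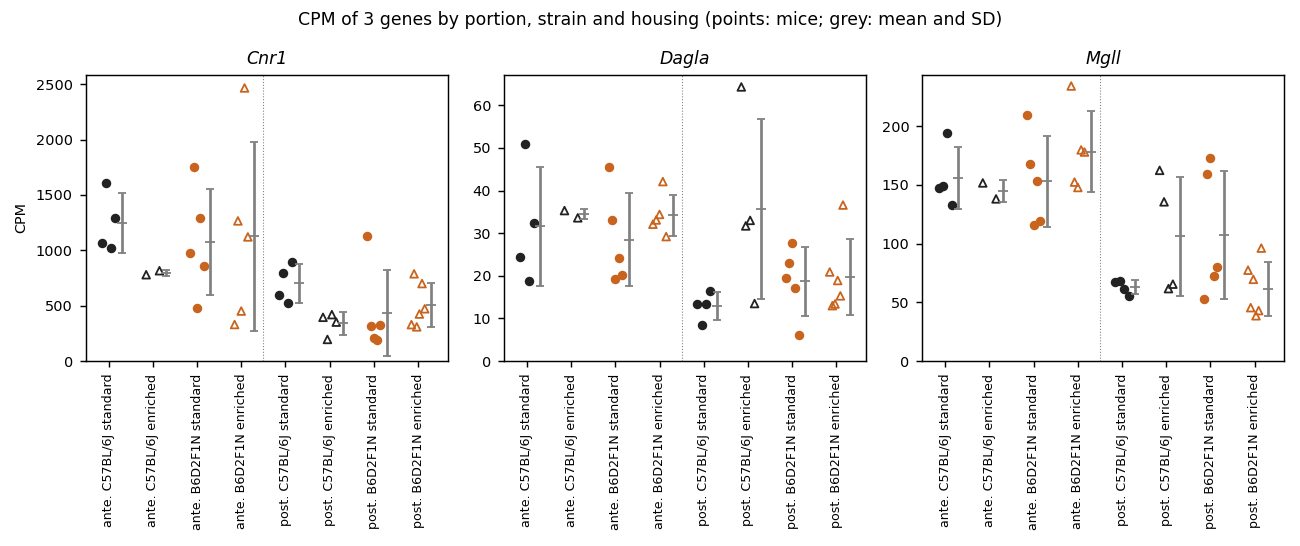
CPM of Cnr1, Dagla and Mgll in each mouse, by portion, strain and housing (circles standard, triangles enriched, black C57BL/6J, orange B6D2F1N), with the mean and SD of each group in grey. Cnr1 of C57BL/6J posterior libraries lies at 521 to 890.4 CPM in standard and at 196 to 420 CPM in enriched mice, and 1 B6D2F1N standard posterior library stands apart at 1126 CPM.

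In the other groups, housing gave smaller or less replicated differences. In C57BL/6J anterior libraries, with 2 enriched mice, Cnr1 had 780 and 816 CPM against 1068, 1612, 1019 and 1293 CPM in standard mice (-0.66 ± 0.245, adjusted p = 0.782, edgeR). Faah in the same libraries had 165 and 190.2 CPM against 242, 393, 247 and 264 CPM (-0.70 ± 0.254, adjusted p = 0.767, edgeR). For both genes the groups did not overlap, but how many of all genes separate in this way between groups of this size was not counted. Napepld, with a log2 fold change of 1.09 ± 0.414 (adjusted p = 0.789, edgeR), rested on enriched mouse 3, and without it the value was 0.17 (adjusted p = 1). In B6D2F1N posterior libraries Mgll had 38.6 to 96.2 CPM, median 57.6, in enriched and 52.9 to 173 CPM, median 79.9, in standard mice (-0.82 ± 0.321, adjusted p = 0.752, edgeR). This sign was the opposite of that in C57BL/6J posterior libraries.

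Whether the effect of housing differed between the strains was tested within each portion, and with edgeR no gene passed in either, 0% of 26353 for the anterior portion and 0% of 27871 for the posterior one (1576 and 2335 genes with an unadjusted p under 0.05, 11 and 37 calls by DESeq2). In the posterior portion 3 of the 8 genes had an unadjusted p under 0.05. These were Mgll, with -1.58 ± 0.48 on the log2 scale (adjusted p = 0.491, edgeR), Dagla, with -1.42 ± 0.56 (adjusted p = 0.5, edgeR), and Cnr1, with 1.24 ± 0.569 (adjusted p = 0.559, edgeR). Without B6D2F1N standard mouse 1 the value for Cnr1 was 1.97 ± 0.422 (adjusted p = 0.106, edgeR). In the anterior portion they were Abhd12 (1.31 ± 0.585, adjusted p = 0.831, edgeR) and Faah (1.17 ± 0.45, adjusted p = 0.814, edgeR).

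The 3 hydrolases of 2-AG were present in unequal amounts per length. Of their summed level per kb, Abhd6 made up 35.8 to 60.5% (median 49.3%) in the anterior and 42.6 to 64.8% (median 55.7%) in the posterior libraries. Abhd12 held medians of 37.6 and 33.4%, and Mgll, the smallest, 10.6 and 6.48%. These shares are of transcript level and do not measure enzyme activity.

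Across the 35 libraries the 8 genes formed no single pattern. On log2 CPM, Cnr1 correlated with Abhd6 with a Pearson's r of 0.84 (0.85 after subtraction of the means of the 8 groups) and with Daglb with 0.69 (0.51), but with Mgll only with 0.24 (-0.31 within groups). Dagla and Mgll correlated with each other (0.66, and 0.49 within groups). Napepld correlated with the others at between -0.24 and 0.03 (-0.01 to 0.32 within groups). These are descriptions over libraries that share mice, depth and tissue makeup. The protein-coding genes most like each member were sought among 9571 with a mean of at least 10 CPM. For Cnr1 they were Pcsk1, a prohormone convertase (r = 0.94, and 0.90 within groups), and C1ql3, a secreted synaptic protein (0.91 and 0.89). Abhd6 was most like Serinc1 (0.94 and 0.95) and Tmx2 (0.94 and 0.94). Mgll was most like Osbpl1a (0.92 and 0.78) and Ppp2r2c (0.91 and 0.84), Abhd12 like Glrb, the glycine receptor beta subunit (0.91 and 0.89), and Grina (0.91 and 0.87), and Daglb like Pld3 (0.90 and 0.84) and Letmd1 (0.89 and 0.84). Dagla was most like Pnkd (0.84 and 0.80) and Adora1, the adenosine A1 receptor (0.82 and 0.76), and Faah like Slc6a15 and Slc37a3 (0.80 and 0.83 for each). Napepld had the weakest likeness, with 0.69 (0.59) for Trip4 and 0.61 (0.64) for Sfmbt1.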

How the data were processed

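Libraries were made from polyadenylated RNA of laser-captured cells with the NEBNext Single Cell/Low Input kit and sequenced as single reads of 72 bases. The authors used Trimmomatic 0.38 for trimming and HISAT2 2.1.0 for alignment to GRCm38, handled alignments with SAMtools 1.8 and counted them with HTSeq 0.11.2. The deposited values are raw read counts per Ensembl gene and library, neither normalized nor filtered. HTSeq's totals of unassigned reads were left out (no annotated gene 13.7 to 26.4%, more than 1 gene 3.06 to 3.74%, no unique alignment 6.23 to 10.9% of reads).

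Symbols, positions and exonic lengths came from GENCODE M21 on GRCm38, and the release used for counting is not given in the sources used here. Genes with at least 10 counts over the libraries of a comparison were tested with edgeR 4.0.16 (TMM, quasi-likelihood F test) in R 4.3.3, with DESeq2 1.42.0 as an alternative. P-values were adjusted by Benjamini-Hochberg over all genes tested, with 0.05 as the threshold. Portions were compared with the mouse as a block, since 16 mice gave a library of each, and strain and housing within groups of the other factors. As a check of this pairing, group means were subtracted, and over 16023 genes the anterior and posterior residuals of 1 animal had a median r of 0.0482 (-0.105 to 0.221). CPM were scaled by TMM over the 35 libraries, and log2 CPM carry a prior count of 2. No 2 libraries held identical counts. Totals of 16938534 to 27352623 counts per library limit precision by counting error only, since reads carry no molecular identifiers. The tests were also run on simulated counts with known changes.

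All 8 genes are named with their levels, fold changes are given where the unadjusted p is under 0.05, and the 33 further pathway genes are named where they pass the threshold (at most the 5 with the smallest p per comparison, otherwise counted). For each member the 2 most correlated genes with a mean of at least 10 CPM are named. The members, gene lists and markers were chosen with earlier results of these data known. Alternatives were DESeq2, its size factors in edgeR, edgeR's filterByExpr, no minimum count, robust estimation, no mouse block, only mice with both portions, the longest transcript as the length and single mice left out. Each mouse was left out in turn for portion within a strain and for strain or housing within a group. In all other fits only B6D2F1N standard mouse 1 or 2 was left out.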

Additional observations from a re-analysis of the deposited data

Results flagged for a closer look

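In 6 of 56 sets of 4 to 6 libraries (8 genes in each group of that size), 1 library lay far from the rest of its group by Dixon's criterion, which flags about 1 in 20 such sets by chance, or 2.8 here. Cnr1 in B6D2F1N standard posterior mouse 1 had 1126 CPM, against 187 to 327 CPM in the other 4 mice. C57BL/6J standard anterior mouse 2 stood apart for 3 genes, with 269 CPM for Daglb (others 157 to 169.6), 936 CPM for Abhd12 (others 284 to 370.5) and 393 CPM for Faah (others 242 to 264). Abhd12 in B6D2F1N enriched posterior mouse 2 had 394 CPM, against 100.3 to 193 CPM in the other 5 mice. Dagla in B6D2F1N enriched posterior mouse 6 had 36.6 CPM, against 13 to 20.9 CPM. The interactions tested were portion by strain, portion by housing, and strain by housing within each portion. None passed the adjusted threshold for any of the 8 genes (edgeR, DESeq2), and an interaction of all 3 factors was not tested.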

How the results depend on the processing

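The number of the 8 genes past the threshold was recomputed under every alternative. For portion over the 16 mice, B6D2F1N standard mice 1 and 2 were the only single mice left out. The number stayed at 6 in each alternative except without the mouse as a block, where Dagla was lost and 5 remained. In C57BL/6J it was 2 with and without the replicate block, and 2 to 3 with single mice left out. In B6D2F1N it was 5 with the block and 3 without it (Cnr1, Daglb and Mgll), 6 with DESeq2 and with no minimum count (Dagla gained), 4 with DESeq2's size factors in edgeR and with filterByExpr (Abhd12 lost), and 3 to 6 with single mice left out, 3 without standard mouse 2 or 4 or enriched mouse 2, 3 or 4. Cnr1, Daglb and Mgll were called in each of the 16 alternatives in B6D2F1N, and Cnr1 and Mgll in each of the 12 in C57BL/6J. For strain in standard anterior libraries DESeq2 called 1 gene (Napepld) where edgeR called 0, and in standard posterior libraries the count was 0 to 1 with single mice left out, the 1 being Cnr1 without B6D2F1N standard mouse 1. For housing in C57BL/6J posterior libraries DESeq2 called 2 genes (Cnr1 and Dagla) and edgeR without a minimum count 1 (Dagla), and the causes were not tested. The other 13 comparisons had no member past the threshold in the main fit or in any alternative, and no fold change given in the text changed sign. Of 541 refitted values of 46 gene results, 490 kept their side of the threshold, 41 lost it and 10 gained it. With the longest transcript as the length, Daglb (25 against 12.7 CPM per kb) and Faah (41.5 against 29.3) moved by more than 1 SD. B6D2F1N standard mouse 2 had been planned as the mouse to leave out of the fits over both strains or housings, and mouse 1, which lacks Xist reads, was added after the data were seen. The enriched anterior group of C57BL/6J held only 2 mice, and with 1 of them left out the lone mouse was assumed to vary like the others.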
